A study of Homo sapiens with 18 samples.

Results

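MYC and CCND1, the gene for cyclin D1, are described here across 6 HEK lines. They are 2 of 14884 genes that carry a symbol on the arrays and 2 of the 9686 genes tested, and they were found by gene symbol. Each has 1 probe set. MYC lies on chromosome 8 from 127735434 to 127742951 and CCND1 on chromosome 11 from 69641156 to 69654474 in the current annotation (GRCh38.p14), which served only for names and gene order. Both genes were selected on their measured differences between KO-labelled and wild-type lines, so their levels and differences are given as a description without a test.

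HEK is an established human embryonic kidney line. The lines labelled ATXN1L-KO were A10, A30 and B21, which were treated with CRISPR against ATXN1L, selected in puromycin and grown from single colonies, so each is 1 clone. The wild-type lines were the CRISPR controls N4 and N8 and the parental cells, whose treatment label reads the same. All were grown in DMEM with serum and had 3 arrays each, described in the series' design as biological triplicates, 18 arrays in all. ATXN1L is a partner of the transcriptional repressor CIC, and the comparison asks how expression differs where ATXN1L was edited.

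MYC is a transcription factor that pairs with MAX and binds promoters of genes for ribosome assembly, nucleotide synthesis and cell growth. It competes for MAX with repressors of the MXD family and with MGA. Cyclin D1 activates the kinases CDK4 and CDK6, which phosphorylate the retinoblastoma protein and so release E2F factors at the start of the cell cycle. Wnt signalling through LEF1 and TCF factors, and growth factor signalling through AP-1 and ETS factors, are known to act on both genes, and CIC represses ETS genes of the PEA3 group.

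Values are on the log2 scale of the deposited tables, where a difference of 1 is a doubling, and levels of different genes are not compared. Array medians ran from 5.09 to 5.18. The ATXN1L signal was not lower in the KO-labelled lines, at 7.41 against 7.16 in the wild-type lines (difference 0.25 ± 0.08 SE, limma adjusted p = 0.468). Against the wild-type arrays it was called higher in A30, by 0.22 ± 0.07 (adjusted p = 0.0160), and in the B21 line, by 0.32 ± 0.07 (adjusted p = 0.00312), and A10 differed by 0.20 ± 0.07 (adjusted p = 0.0654). Since the labels do not say where ATXN1L was edited, its probe set does not check them. Of 8 kidney-lineage markers of HEK cells 7 passed the filter on dim genes, and the summed level of the 8 per array ran from 51.51 to 52.58 in KO-labelled lines and from 51.72 to 53.58 in wild-type lines. Of the 7 tested, 0 rose in any KO-labelled line, while B21 had 3 lower, A30 had 2 and A10 had 1. Over all tested genes 7.2% were called lower in B21, 16.3% in A30 and 4.56% in A10. MAP2, the tested neuronal marker, fell by 1.01 ± 0.16 in A30 (adjusted p = 0.000185). LUM, the tested fibroblast marker, was above the filter value of 5.6 on 4 arrays, and B21 alone had a line mean above it, at 5.95. It stood 0.70 ± 0.11 above the wild-type lines in B21. In A30, with a line mean of 4.90, it stood 0.34 ± 0.11 below them. Since LUM passed the filter with the help of B21, where it was high, these values are a description. The part of these markers in the MYC and CCND1 levels was not tested. Of 6 leukocyte markers 1 passed the filter. The first A10 array was unlike its line. After each gene was centred on its mean, its correlation with replicate 1 of N4 was 0.39, and those with replicates 2 and 3 of A10 were 0.01 and 0.14. Results on A10 are therefore given with and without it where it matters. In such bulk RNA, fewer cells with a transcript and less transcript per cell cannot be told apart.

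MYC was lower in all 3 KO-labelled lines than in the mean of the wild-type lines, and the size of the difference varied from line to line. A30 had the lowest MYC levels, at 6.55, 6.59 and 6.75 in replicates 1 to 3. B21 read 7.72, 7.56 and 7.59. A10 read 8.06, 7.0 and 7.07, so that its replicate 1 lay over 1 unit above the other A10 arrays. The parental cells read 8.48, 8.66 and 8.64. N4 read 8.21, 8.65 and 8.67. N8 was the lowest wild-type line, at 7.46, 8.16 and 8.0. All 9 KO-labelled arrays lay below the wild-type mean, 5 of them lay below every wild-type array, and the other 4 lay within the wild-type range.

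Averaged over lines, MYC stood at 7.21 ± 0.52 in the KO-labelled lines and 8.33 ± 0.39 in the wild-type lines (SD, n = 3 lines each). The difference was −1.12 ± 0.26 (SE), or 0.462 of the wild-type level on the linear scale. All 3 KO-labelled line means lay below all 3 wild-type line means, as did those of 7.22% of all tested genes. Against the wild-type lines, A10 differed by −0.95 ± 0.18, A30 by −1.70 ± 0.18 and B21 by −0.70 ± 0.18 (limma SE). A30 therefore held 0.309 of the wild-type MYC level, A10 0.518 and B21 0.615. These line comparisons share the same wild-type arrays. Without replicate 1 of A10 the A10 difference was −1.29 and the difference between the genotypes −1.23. Within replicate 1 the genotypes differed by −0.61 and within replicates 2 and 3 by −1.37.

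From the highest line mean to the lowest, the order for MYC was parental, N4, N8, B21, A10 and A30. The parental cells (8.59 ± 0.10) and N4 (8.51 ± 0.26) had overlapping arrays, as had N8 (7.87 ± 0.37) and B21 (7.62 ± 0.09), and B21 and A10 (7.38 ± 0.59, SD, n = 3 arrays). Arrays did not overlap between N4 and N8, which differed by 0.64 ± 0.22, or between A10 and A30 (6.63 ± 0.11), which differed by 0.75 ± 0.22 (SE). N8 differed from the parental cells by −0.72 ± 0.22 and N4 by −0.08 ± 0.22. The gap between N8 and the parental cells was thus as large as that between B21 and the wild-type lines.

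CCND1 stood apart in B21. That line read 8.60, 8.85 and 8.94 in replicates 1 to 3, above every wild-type array. A10 read 8.29, 8.42 and 8.45, and A30 read 8.49, 8.39 and 8.37. The wild-type arrays ran from 8.17 to 8.49, with 8.32, 8.37 and 8.36 in the parental cells, 8.27, 8.36 and 8.39 in N4, and 8.17, 8.49 and 8.41 in N8. A10 and A30 lay within the wild-type range.

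**Figure D1:**
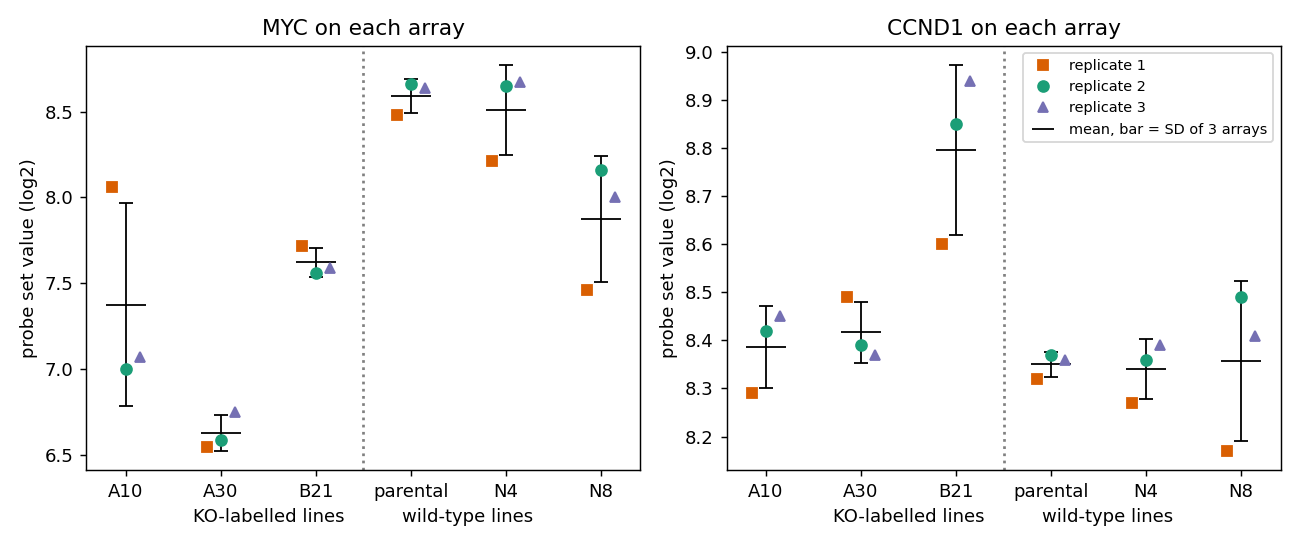
Level of MYC (left) and CCND1 (right) on each of 18 arrays, as the log2 value of the probe set, by line, with KO-labelled lines left of the dotted line and wild-type lines right of it. Symbols mark replicate numbers, bars the mean and SD of 3 arrays. MYC is lowest in A30 and spread widely in A10, whose replicate 1 is at 8.06, and CCND1 stands apart in B21, from 8.60 to 8.94.

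Over lines, CCND1 averaged 8.53 ± 0.23 in the KO-labelled and 8.35 ± 0.008 in the wild-type lines (SD, n = 3 lines each), a difference of 0.18 ± 0.11 (SE). All 3 KO-labelled line means lay above all 3 wild-type line means, as did those of 7.37% of all tested genes. B21 differed from the wild-type lines by 0.45 ± 0.08, a ratio of 1.36. Within replicate 1 the genotypes differed by 0.21 in CCND1, and within replicates 2 and 3 by 0.17. A10 differed by 0.04 ± 0.08 and A30 by 0.07 ± 0.08, within their error. In the order of line means, B21 lay above A30 by 0.38 ± 0.09 with no overlap of arrays, and every following pair of neighbours (A30, A10, N8, parental, N4) overlapped. N4 and N8 differed from the parental cells by −0.01 ± 0.09 and 0.01 ± 0.09.

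The levels of both genes were weakly related over the arrays. Their correlation was −0.19 over 18 arrays and −0.25 over 6 line means, and 0.06 over the deviations from the line means. Over the 5 lines other than B21 it was −0.97, where CCND1 means differ by less than their error. A30, lowest in MYC, had CCND1 near the wild-type mean. B21, the KO-labelled line with the least reduced MYC, had the highest CCND1. Arrays share lines and replicate numbers, so these coefficients are a description.

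Genes around both members were counted from 8 lists of 227 genes, of which 151 were tested, and a gene was called at a limma adjusted p under 0.05 over all 9686 tested genes. Between genotypes, on line means, none of the 151 was called (0% of all genes), while 22 of them and 937 of all genes had an unadjusted p under 0.05. Against the wild-type lines, 20 listed genes were called in A10, 9 higher and 11 lower (13.2%, against 8.4% of all genes, of which 3.84% were higher and 4.56% lower). In A30 60 were called, 33 higher and 27 lower (39.7%, against 29.3% of all genes, 12.9% higher and 16.3% lower). In B21 36 were called, 25 higher and 11 lower (23.8%, against 16% of all genes, 8.82% higher and 7.2% lower). N8 against the parental cells gave 25, 13 higher and 12 lower (16.6%, against 14.7% of all genes, 7.67% higher and 7.03% lower). N4 gave 2, 1 higher and 1 lower (1.32%, against 0.547% of all genes, 0.206% higher and 0.341% lower). Such tests on arrays measure the spread among triplicates of a clone and not that among clones. With each array left out in turn, 6 of the 20 calls in A10, 33 of 60 in A30, 20 of 36 in B21, 11 of 25 in N8 and 0 of 2 in N4 held every time, and the arrays that ended a call named below are given beside it. LGR5, LEF1 and CDT1 were lower in each KO-labelled line and ETV5 and THBS1 higher in each. ETV5 passed the filter only through KO-labelled arrays, so its part here is a description. Of all genes 0.774% were lower in each line and 0.743% higher in each.

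Partners and regulators of MYC protein moved in both directions. MAX, the obligate partner, averaged 7.14 ± 0.06 in the KO-labelled and 7.15 ± 0.10 in the wild-type lines (SD, n = 3 lines each). Of 22 tested genes of this network, 1 rose and 1 fell in A10, 4 rose and 2 fell in A30, and 2 rose in B21, beside 8.4%, 29.3% and 16% of all genes called in these lines. MXD4, a repressor that competes for MAX, fell by 0.32 ± 0.07 in A10 (limma adjusted p = 0.00652) and 0.34 ± 0.07 in A30 (adjusted p = 0.00103). Genes next to MXD4 on chromosome 4 had a median difference of −0.15 in A10 and −0.19 in A30, and relative to them neither fall was called (adjusted p = 0.185 and 0.134). Without replicate 2 of A10 the fall there was not called either (adjusted p = 0.0677). PIM1, a kinase known to stabilise MYC, rose in A30 by 0.42 ± 0.08 (adjusted p = 0.000707), and the B21 rise was 0.25 ± 0.08 (adjusted p = 0.0374). The rise in B21 was lost without any 1 of 8 arrays, the 3 of B21 among them (adjusted p up to 0.141). TRRAP, a scaffold of the acetyltransferase complexes that MYC recruits, rose by 0.30 ± 0.06 in A30 and 0.22 ± 0.06 in B21 (adjusted p = 0.000636 and 0.0122). In B21 it was not called relative to neighbours (adjusted p = 0.149) or without replicate 3 of B21 (adjusted p = 0.0707).

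Genes that MYC is known to induce are set beside all tested genes, since MYC itself was selected on its difference. Of 43 tested, 1 rose and 1 fell in A10, 2 rose and 7 fell in A30, and 2 fell in B21. Over all genes 8.4%, 29.3% and 16% were called in these lines, so calls were no more frequent in this list. Their median difference was −0.08 in A10, 0.01 in A30 and 0.01 in B21, beside −0.01, 0.01 and 0.01 over all tested genes. In A30, where MYC was lowest, NOLC1, a nucleolar phosphoprotein, fell by 0.34 ± 0.10 (limma adjusted p = 0.0146) and CDK4 by 0.23 ± 0.06 (adjusted p = 0.00618). Without replicate 1 of A30 the NOLC1 fall was not called (adjusted p = 0.113). EIF4E, the cap-binding translation factor, fell by 0.67 ± 0.08 in A30 (adjusted p = 1.10e-05). Its neighbours on chromosome 4 had a median difference of −0.54 in that line, and relative to them EIF4E was not called (adjusted p = 0.336). TERT, the catalytic subunit of telomerase, fell by 0.36 ± 0.07 in B21 (adjusted p = 0.00337). It read 6.03 to 6.10 there, and the wild-type lines differed among themselves. N8 read 6.12 to 6.33, the parental cells 6.28 to 6.37 and N4 6.56 to 6.82.

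NOLC1 read 9.44, 9.62 and 9.59 in A10, 9.31, 9.49 and 9.60 in A30, and 9.52, 9.70 and 9.77 in B21. The wild-type arrays ran from 9.45 to 9.95 with a median of 9.87. The groups overlapped. Replicate 1 of N8 read 9.45 and replicate 1 of the parental cells 9.65, and replicates 2 and 3 of B21 lay above both.

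**Figure D2:**
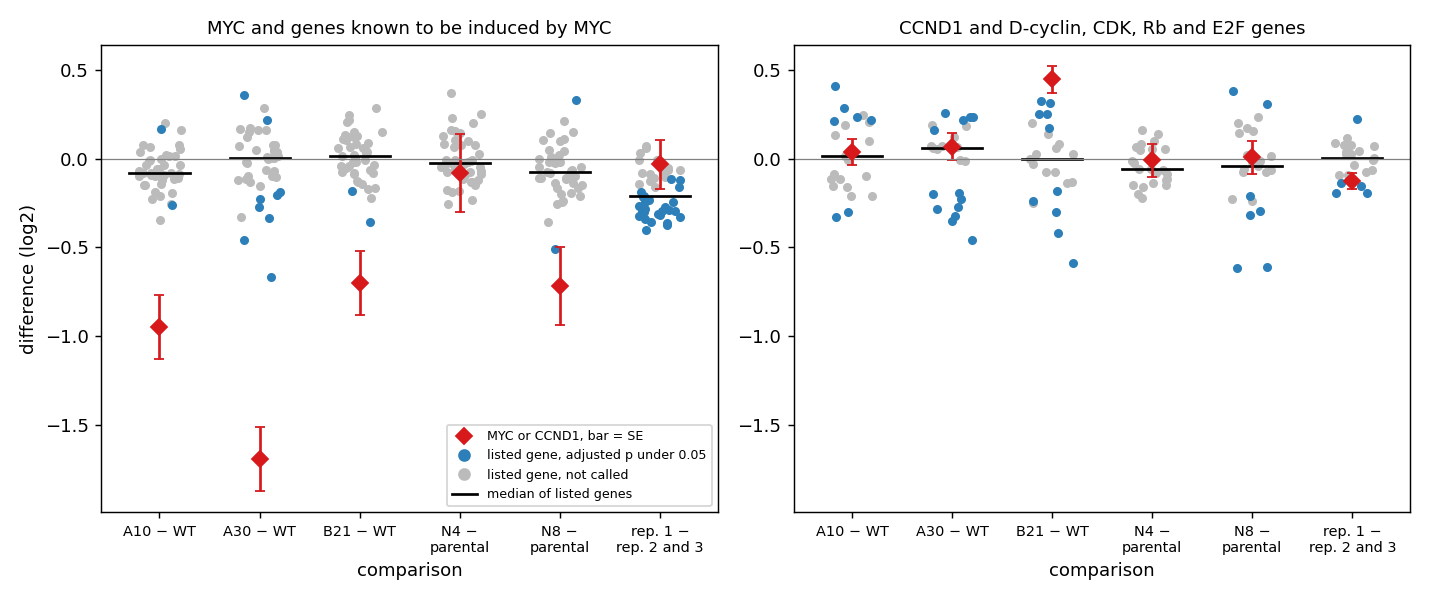
Differences (log2) in 6 comparisons for genes MYC is known to induce (left) and for D-cyclin, CDK, Rb and E2F genes (right), 1 point per gene, blue where the limma adjusted p is under 0.05, with the median as a line. Red diamonds are MYC (left) and CCND1 (right) with their SE. MYC, which was selected on its difference, lies at −1.70 in A30. The median of its known targets there is 0.01, as over all tested genes.

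The few tested genes that MYC is known to repress moved in both directions. Of 6 tested, 1 rose and 1 fell in A10, 2 rose and 2 fell in A30, and 3 rose in B21. The shares of all genes called in these lines were 8.4%, 29.3% and 16%. THBS1, which encodes the matrix protein thrombospondin 1, rose by 0.76 ± 0.19 in A10 (limma adjusted p = 0.0205) and 0.92 ± 0.19 in A30 (adjusted p = 0.00152). Its largest rise in these lines was that in B21, at 1.48 ± 0.19 (adjusted p = 6.37e-05). The A10 rise was not called relative to neighbouring genes (adjusted p = 0.0749) or without replicate 2 or 3 of A10 (adjusted p = 0.134 and 0.182), and without replicate 1 it was 1.11. NDRG1, a stress-responsive gene, fell by 0.61 ± 0.17 in A10 and 0.94 ± 0.17 in A30, and by 0.95 ± 0.21 in N8 against the parental cells (adjusted p = 0.0343, 0.000524 and 0.00642). In A10 the NDRG1 call was lost relative to neighbours (adjusted p = 0.165) and without any 1 of 6 arrays, replicates 2 and 3 of A10 among them (adjusted p up to 0.254), and without replicate 1 of A10 the difference was −0.99. NDRG1 read 7.35 in replicate 1 of A10 and 6.26 and 6.19 in the others, the same split of that line as in MYC.

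The other D cyclins did not follow CCND1. CCND2 fell in A10 by 0.30 ± 0.06 (limma adjusted p = 0.00530) and in A30 by 0.27 ± 0.06 (adjusted p = 0.00256), and in B21 it read 8.81, 8.97 and 8.88, within the wild-type range of 8.60 to 8.96 except for 1 array. The fall in A10 was not called relative to neighbouring genes (adjusted p = 0.114) or without replicate 2 of A10 (adjusted p = 0.0526). CCND3 averaged 6.24 ± 0.02 in the KO-labelled and 6.20 ± 0.10 in the wild-type lines (SD, n = 3 lines each). CDK4, a kinase partner of the D cyclins, fell in A30 and in B21, there by 0.18 ± 0.06 (adjusted p = 0.0360). It read 10.25 to 10.39 on those 6 arrays against 10.49 to 10.62 on the 9 wild-type arrays. In A10 it read 10.31, 10.47 and 10.60, which overlapped the wild-type arrays. The share of all genes with such a gap was not counted. The fall in B21 was lost without any 1 of 8 arrays, the 3 of B21 among them (adjusted p up to 0.152). CDK6, the other partner, rose in B21 by 0.32 ± 0.09 (adjusted p = 0.0219), and not relative to neighbouring genes (adjusted p = 0.225) or without replicate 2 or 3 of B21 (adjusted p = 0.125 and 0.0829).

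Of 23 tested genes of the cyclin D, Rb and E2F network, 5 rose and 2 fell in A10, 5 rose and 8 fell in A30, and 5 rose and 5 fell in B21. The shares of all genes called were 8.4%, 29.3% and 16% in the same order. RB1, the retinoblastoma gene that CDK4 and CDK6 act on, differed from line to line. It read 9.47, 9.50 and 9.43 in A10, 8.96, 8.92 and 9.02 in A30, and 8.72, 8.64 and 8.62 in B21, against 9.09 to 9.44 in the wild-type lines. It rose by 0.22 ± 0.05 in A10 (limma adjusted p = 0.0216), a call lost without replicate 2 or 3 of A10 (adjusted p = 0.118 and 0.0645). It fell by 0.28 ± 0.05 in A30 (adjusted p = 0.000844). In B21 it fell by 0.59 ± 0.05 (adjusted p = 1.94e-06). Its neighbours on chromosome 13 had a median difference of −0.29 in B21, and RB1 fell by 0.29 relative to them (adjusted p = 0.00223). The A30 fall was not called relative to neighbours (adjusted p = 0.0517).

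TFDP1, the partner of E2F factors, rose by 0.41 ± 0.06 in A10 (limma adjusted p = 0.000374), where its neighbours had a median difference of 0.47. Relative to those neighbours it stood at −0.06 and was not called. E2F3 fell by 0.30 ± 0.07 in B21 (adjusted p = 0.00468). E2F1 averaged 8.04 ± 0.10 in the KO-labelled and 8.06 ± 0.26 in the wild-type lines (SD, n = 3 lines each).

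Replication and S-phase genes that E2F factors induce also moved both ways. Of 30 tested, 2 rose and 5 fell in A10, 6 rose and 4 fell in A30, and 3 rose and 2 fell in B21. Over all genes 8.4%, 29.3% and 16% were called in these lines. CDT1, which licenses replication origins, fell by 0.23 ± 0.07 in A10, by 0.22 ± 0.07 in A30 and by 0.21 ± 0.07 in B21 (limma adjusted p = 0.0436, 0.0203 and 0.0426). In none of these lines was it called relative to neighbouring genes (adjusted p = 0.224, 0.923 and 0.157). The call was lost without any 1 of 11 arrays in A10 (adjusted p up to 0.164) and any 1 of 12 in B21 (up to 0.177), each with all 3 arrays of the line among them, and without replicate 3 of A30 there (0.144). CDC45, a helicase subunit, rose by 0.33 ± 0.05 in A30 (adjusted p = 0.000246), and by 0.28 ± 0.05 in the B21 line (adjusted p = 0.00183).

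Among Wnt-responsive genes, LGR5 and LEF1 were lower wherever MYC was lower in the KO-labelled lines. LGR5, a receptor for R-spondins, read 7.87, 7.98 and 7.99 in A10, 7.44, 7.19 and 7.49 in A30, and 8.20, 8.03 and 8.13 in B21. The wild-type arrays ran from 8.58 to 9.06 with a median of 8.86, so the groups did not overlap. By line means, 7.22% of all tested genes had all 3 KO-labelled lines below all 3 wild-type lines. The share of genes without overlap of single arrays was not counted. LGR5 differed by −0.90 ± 0.08 in A10, by −1.47 ± 0.08 in A30 and by −0.72 ± 0.08 in B21 (limma adjusted p = 2.76e-06, 2.70e-09 and 1.07e-05). On line means the difference was −1.03 ± 0.18, which was not called (adjusted p = 0.184).

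LEF1, a nuclear partner of beta-catenin, ran from 6.29 to 6.83 on the KO-labelled arrays and from 6.97 to 7.33 on the wild-type arrays, again without overlap. LEF1 differed by −0.37 ± 0.07 in A10, by −0.70 ± 0.07 in A30 and by −0.40 ± 0.07 in B21 (limma adjusted p = 0.00281, 1.77e-06 and 0.000963). In A30 its neighbours on chromosome 4 had a median difference of −0.52, and relative to them its fall was not called (adjusted p = 0.15). LGR5 was called in each KO-labelled line relative to its neighbours, at −0.90 in A10, −1.38 in A30 and −0.71 in B21.

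Over 18 arrays MYC correlated at 0.88 with LGR5 and 0.86 with LEF1, and over 6 line means at 0.95 and 0.97. MYC was selected on its difference between genotypes, and LGR5 and LEF1 were named for theirs. A high correlation over both genotypes was therefore built in, and the coefficients are a description. In replicate 1 of A10, where MYC was at 8.06, LGR5 read 7.87 and LEF1 6.83, close to the other A10 arrays. N8, low in MYC among the wild-type lines, had LGR5 at 8.58, 8.86 and 8.92. Of 11 tested Wnt-responsive genes, LGR5 and LEF1 included, 2 fell in A10, 2 rose and 3 fell in A30, and 1 rose and 2 fell in B21, beside the same shares of all genes (8.4%, 29.3% and 16%). AXIN2, a widely used Wnt target, read 6.45 to 6.68 on the KO-labelled and 6.44 to 6.73 on the wild-type arrays. LGR4, the paralog of LGR5, rose by 0.32 ± 0.07 in A30 and 0.30 ± 0.07 in B21 (adjusted p = 0.00280 and 0.00860), and in B21 not relative to neighbours (adjusted p = 0.204).

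**Figure D3:**
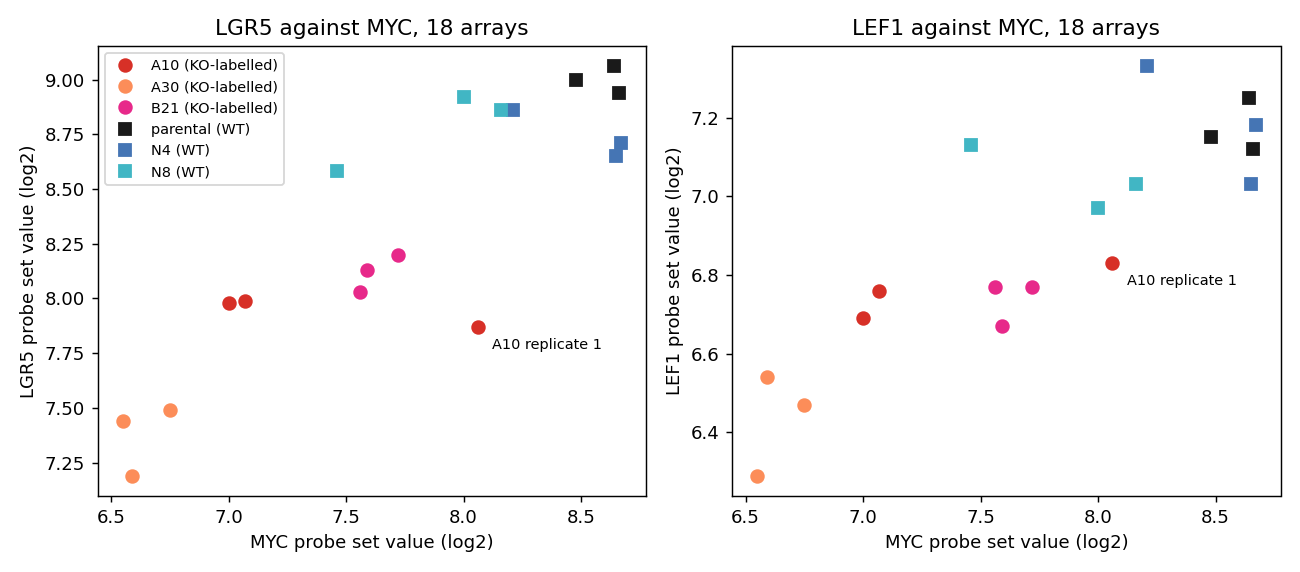
LGR5 (left) and LEF1 (right) against MYC on 18 arrays, all as log2 probe set values, circles for KO-labelled and squares for wild-type lines. Both genes are lower on every KO-labelled array than on any wild-type array, and replicate 1 of A10 has MYC at 8.06 with LGR5 at 7.87.

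Of 15 tested AP-1 and ETS genes, which include known activators of CCND1, 1 fell in A10, 5 rose and 2 fell in A30, and 6 rose and 1 fell in B21. The shares of all genes called in these lines were 8.4%, 29.3% and 16%. ETS1 rose by 0.50 ± 0.09 in B21 and FOSL2, a FOS family member, by 0.49 ± 0.09 (limma adjusted p = 0.00143 and 0.00144). FOSL2 rose also in A30, by 0.43 ± 0.09 (adjusted p = 0.00189), and in N8 against the parental cells, by 0.51 ± 0.11 (adjusted p = 0.00595), lines where CCND1 differed by 0.07 and 0.01. The FOSL2 rise in N8 was not called relative to neighbours (adjusted p = 0.126). ETS1 rose in A30 by 0.26 ± 0.09 (adjusted p = 0.0448), and not relative to neighbours (adjusted p = 0.0555) or without any 1 of 12 arrays, the 3 of A30 among them (adjusted p up to 0.143). FOSL1 rose by 0.41 ± 0.12 in B21 (adjusted p = 0.0222), where CCND1 was highest, and not relative to neighbours (adjusted p = 0.0677) or without replicate 2 or 3 of B21 (adjusted p up to 0.157). FOSL1 was picked out after its values were seen. JUND, an AP-1 member often linked to slow growth, fell by 0.45 ± 0.08 in A30 and 0.44 ± 0.08 in B21 (adjusted p = 0.000547 and 0.00165), and also by 0.41 ± 0.10 in N8 against the parental cells (adjusted p = 0.0121). The fall in N8 was lost relative to neighbours (adjusted p = 0.0632) and without replicate 2 of N8 (adjusted p = 0.0598).

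Genes known to be repressed by CIC had positive differences in the KO-labelled lines. This held for all 11 tested between genotypes, with a median of 0.57 against 0.00 over all genes. In A10 1 rose, in A30 8 and in B21 7, beside 3.84%, 12.9% and 8.82% of all genes called higher. ETV5, an ETS factor, rose by 0.79 ± 0.18 in A10, by 0.99 ± 0.18 in A30 and by 1.01 ± 0.18 in B21 (limma adjusted p = 0.0130, 0.000657 and 0.00141). The A10 call was lost without replicate 2 or 3 of A10 (adjusted p = 0.0847 and 0.107). All 9 wild-type arrays lay below the filter value of 5.6 for ETV5 (4.62 to 5.54) and for DUSP5 (4.29 to 5.59). Both genes passed the filter only through KO-labelled arrays, which favours a rise there. Their part in these counts and the ETV5 differences are therefore a description. CCND1 differed by 0.07 ± 0.08 in A30, where 8 of these genes rose, and by 0.45 ± 0.08 in B21, where 7 rose. Without replicate 1 of A10, 4 rose in that line.

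In B21, where CCND1 was highest, 3 of 4 tested epithelial markers also rose. KRT18 rose by 0.71 ± 0.15, KRT19 by 1.24 ± 0.10 and the tight junction gene CLDN1 by 1.12 ± 0.14 (limma adjusted p = 0.00352, 3.05e-07 and 4.15e-05). Of all genes 8.82% were higher in that line and 12.9% in A30. KRT19 rose about as much in A30, by 1.18 ± 0.10 (adjusted p = 2.38e-07), where CCND1 differed by 0.07 ± 0.08 and 1 of the 4 markers rose. The summed level of 5 epithelial markers with a symbol ran from 31.46 to 36.28 on KO-labelled and from 31.58 to 33.31 on wild-type arrays. On this log2 scale no marker is at 0, and the part of these markers in the CCND1 level was not tested.

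The arrays also differed by replicate number, and here many genes known to be induced by MYC were called. With the line as a term, replicate 1 differed from replicates 2 and 3 by −0.03 ± 0.14 in MYC and −0.13 ± 0.05 in CCND1 (SE). Without replicate 1 of A10 these differences were −0.24 in MYC and −0.12 in CCND1. Of the 43 tested genes induced by MYC, 26 were lower in replicate 1 and 0 higher, with a median of −0.21 against −0.01 over all genes, where 18.6% were called, 8.56% higher and 10% lower. Without that A10 array the median was −0.245, again with 26 lower and 0 higher, beside 15.4% of all genes called in either direction. The fall covered ribosome assembly factors such as MRTO4 (by 0.41 ± 0.05, limma adjusted p = 0.000348) and the polyamine enzymes SRM (by 0.38 ± 0.06, adjusted p = 0.000870) and ODC1 (by 0.33 ± 0.06, adjusted p = 0.00129). These genes were named after their values were seen.

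In the same comparison 10 of 11 CIC-repressed genes fell, beside 10% of all genes called lower. When replicate 1 of A10 was left out, 7 of the 11 fell and 0 rose. Of all genes 15.4% were then called in either direction. TXNIP, a glucose-responsive gene that MYC is known to repress, rose by 0.63 ± 0.11 (limma adjusted p = 0.00127). Of the 6 tested genes that MYC is known to repress it was 1 of 2 called, and the other, THBS1, fell by 0.40 ± 0.11 (adjusted p = 0.0190). Without replicate 1 of A10, 1 of the 6 rose and 0 fell. CCND1 was lower in replicate 1 than in the mean of replicates 2 and 3 in 5 of 6 lines, A30 being the exception. SRM read 11.03 in replicate 1 of A10 against 11.49 and 11.62, while MYC in that line was higher in replicate 1.

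Between the wild-type lines, N8 carried several differences in these pathways beside its lower MYC. Of the 151 listed genes 16.6% were called there, beside 14.7% of all genes. CDKN2A, which encodes cell cycle inhibitors, fell by 0.61 ± 0.12 against the parental cells (limma adjusted p = 0.00238), where neighbouring genes on chromosome 9 had a median difference of −0.38, and relative to them it was not called (adjusted p = 0.344). FBXO4, a ubiquitin ligase component linked to cyclin D1 turnover, fell by 0.62 ± 0.10 (adjusted p = 0.000493). E2F1 rose by 0.38 ± 0.10 (adjusted p = 0.0205), and not relative to neighbours (adjusted p = 0.318) or without replicate 1 or 2 of the parental cells or replicate 3 of N8 (adjusted p up to 0.0772). Of 30 E2F-induced genes 7 rose and 3 fell, and of 43 MYC-induced genes 1 rose and 1 fell. Over all genes 7.67% were higher in N8 and 7.03% lower. Relative to neighbours the rise of E2F2 and the fall of EZH2 were still called (adjusted p = 0.0174 and 0.0197). The calls of E2F1, PCNA, RRM2, MYBL2, GINS1, GINS4, RRM1 and CDC45 were lost (adjusted p from 0.0862 to 0.625). N4 had 2 calls in these lists, EZH2 lower by 0.40 ± 0.07 (adjusted p = 0.00938) and CLU higher by 0.38 ± 0.08 (adjusted p = 0.0306). Neither held relative to neighbours (adjusted p = 0.0832 and 0.280), EZH2 was lost without replicate 2 or 3 of N4 or replicate 3 of the parental cells (adjusted p up to 0.0705), and CLU without any 1 of the 6 arrays compared (adjusted p up to 0.112).

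On the chromosome, the 5 tested genes on each side of MYC had a median difference between genotypes of −0.11, where MYC was at −1.12. TRIB1, the nearest tested gene before MYC, encodes a pseudokinase. In A10 it differed by −0.71 ± 0.23, in A30 by −0.89 ± 0.23 and in B21 by −0.63 ± 0.23, and it was called in A30 (limma adjusted p = 0.00752). Among the wild-type lines it was highest in N4, at 8.32, 8.62 and 8.69, which is 0.77 ± 0.28 above the parental cells (adjusted p = 0.247), where MYC differed by −0.08 ± 0.22. TRIB1 read 8.06 in replicate 1 of A10 and 6.57 and 6.66 in the others, and 6.65, 7.29 and 7.35 in N8 against 7.48, 7.90 and 7.94 in the parental cells. In N8 the gene for the actin regulator MTSS1 fell by 0.60 ± 0.08 (adjusted p = 0.000268). SQLE, an enzyme of cholesterol synthesis, fell there by 0.50 ± 0.12 (adjusted p = 0.0114). MTSS1 also fell in A10, by 0.46 ± 0.07, and in B21, by 0.36 ± 0.07 (adjusted p = 0.000537 and 0.00165). WASHC5 fell in B21 by 0.26 ± 0.06 (adjusted p = 0.00665), and LINC00977 rose in A30 by 0.38 ± 0.11 (adjusted p = 0.0132). Of the 10 neighbours, 1 was called lower in A10, 1 in A30, 2 in B21 and 2 in N8. Over all genes 4.56%, 16.3%, 7.2% and 7.03% were called lower in these lines.

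Around CCND1, the neighbours in B21 had a median of 0.13, beside 0.01 over all tested genes. Against 8.82% of all genes called higher in that line, 3 of the 10 neighbours were. They were GAL, a neuropeptide gene (0.47 ± 0.15), CPT1A, a fatty acid oxidation enzyme (0.22 ± 0.07), and CTTN (0.19 ± 0.06), the gene for the actin-binding protein cortactin. Relative to neighbouring genes CCND1 in B21 stood 0.33 above the wild-type lines.

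**Figure D4:**
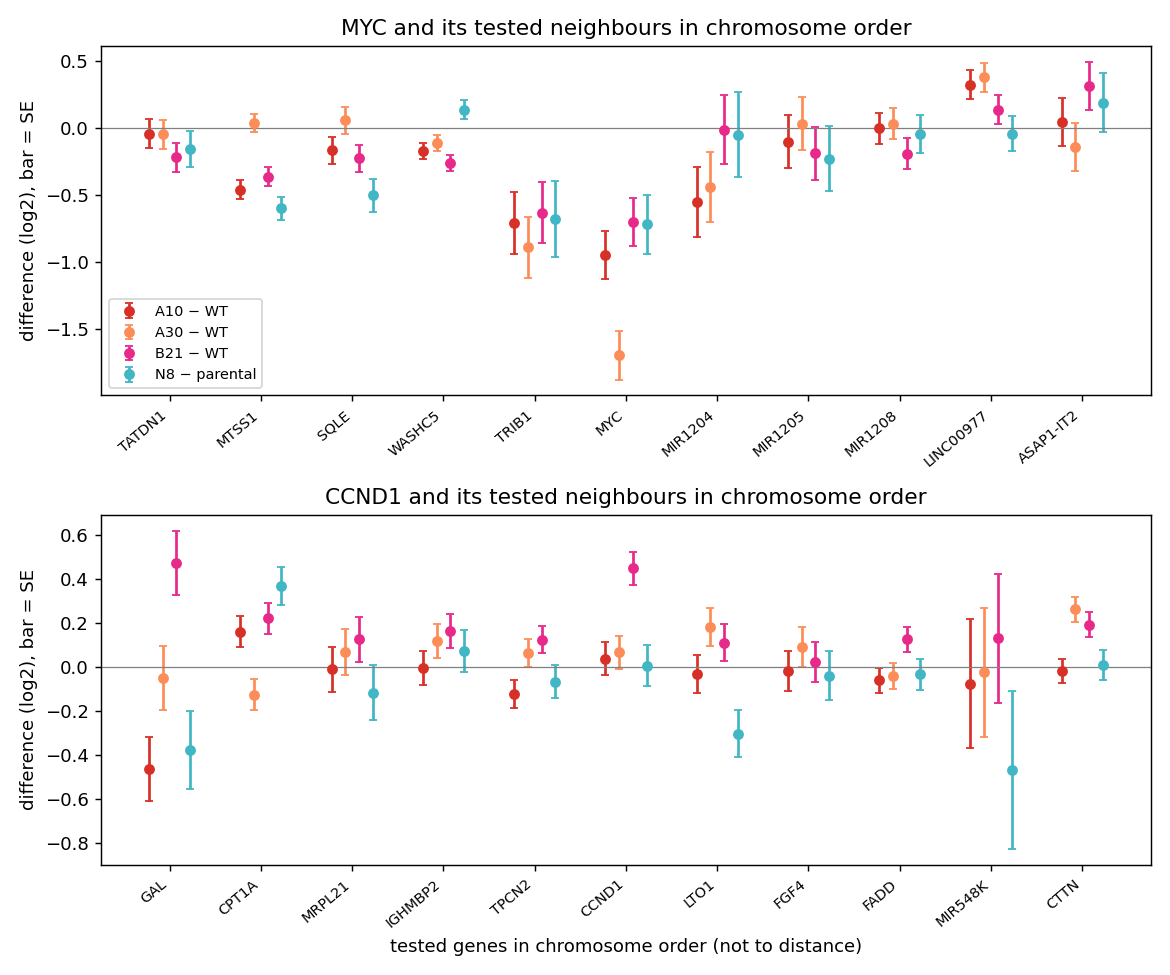
Differences (log2, bars are SE) of MYC (top) and CCND1 (bottom) and the 5 nearest tested genes on each side, in chromosome order and not to distance, for 3 KO-labelled lines against wild type and for N8 against the parental cells. TRIB1 is at −0.89 in A30, while the 10 neighbours of MYC have a median of −0.11 between genotypes.

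The genes whose levels were most like MYC over the 18 arrays, by Pearson's correlation over 9685 other genes, were CADPS2 (r = 0.94), MGST1 (0.92), ETFDH (0.91), UGT8 (0.91) and AASDH (0.90). CADPS2, a vesicle exocytosis gene, read 6.66 in replicate 1 of A10 and 4.73 and 4.96 in the others, a split like that of MYC. Most opposite were GOSR2 (−0.91), IL17RA (−0.91), NDEL1 (−0.90), KSR1 (−0.89) and POFUT2 (−0.88). For deviations from the line means, r was 0.86 for CADPS2 and −0.86 for IL17RA, but −0.32 for NDEL1 and −0.45 for GOSR2.

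The genes most like CCND1 were HS6ST2 (r = 0.95), FHL2 (0.90), ARHGAP29 (0.89), KLHL5 (0.89) and MFAP5 (0.89), all highest in B21. Most opposite were SYT11 (−0.95), RBBP4 (−0.90), KLF12 (−0.89), LMNB1 (−0.88) and ITM2B (−0.88), all lowest in B21. HS6ST2, a heparan sulfate sulfotransferase, read 7.52, 7.63 and 8.06 in B21 and 7.05 to 7.29 in the wild-type lines. SYT11, a synaptotagmin, read 6.48, 6.12 and 6.18 in B21 and 7.11 to 7.55 in the wild-type lines. Arrays share lines and replicate numbers, so likeness over them is a description. Likeness to MYC or CCND1 was not taken relative to neighbouring genes. Shifts shared by a stretch of a chromosome are therefore not set apart in it. Such shifts were the neighbour medians of −0.54 around EIF4E in A30 and −0.29 around RB1 in B21.

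**Figure D5:**
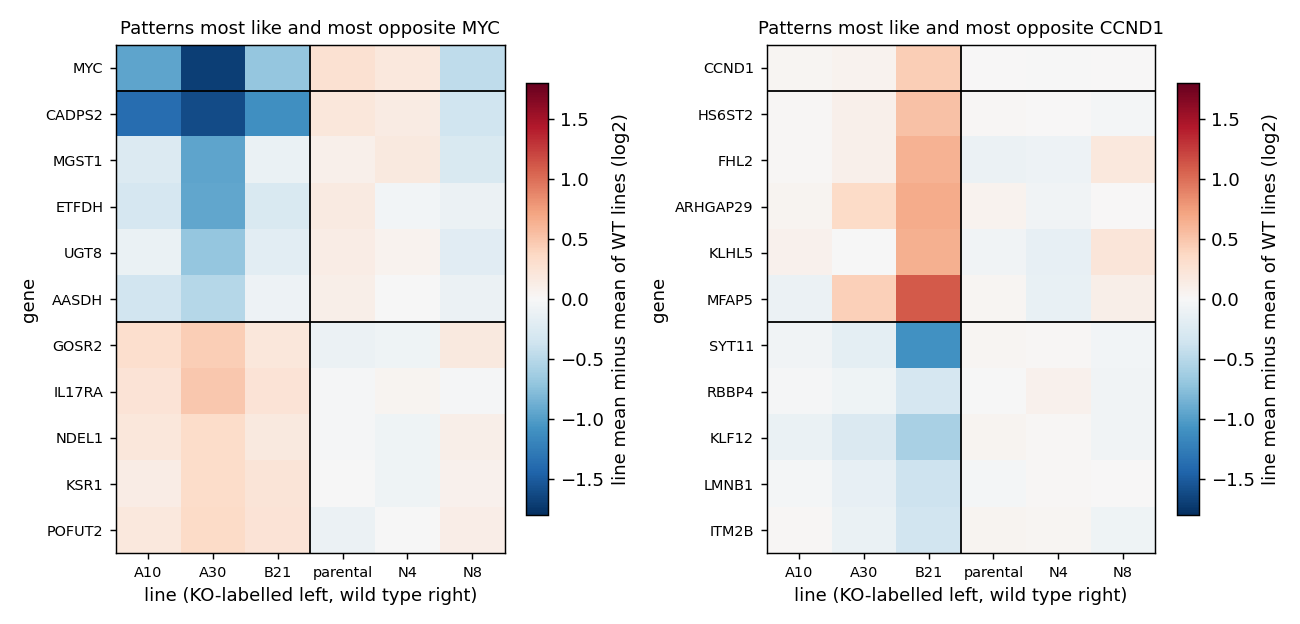
Line means minus the mean of the wild-type lines (log2, colour) for MYC (left) and CCND1 (right), the 5 genes most like each over 18 arrays and the 5 most opposite, with KO-labelled lines left of the vertical line. MYC-like genes are lowest in A30 and CCND1-like genes are highest in B21.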

How the data were processed

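The deposited values are log2 probe set values that the authors made with Affymetrix Expression Console, per the submitters' processing notes. Its version, normalisation settings and genome build were not given in the sources used here. They span 0.57 to 14.84, from which the log scale was taken, and were used as deposited with a pseudocount of 0. Of 53617 probe sets 16098 had 1 gene symbol, 0 several and 37519 none. The probe set with the highest mean was used for each of 779 genes with several. Genes with at least 3 arrays above 5.6, the 40th percentile, were tested.

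Line means were compared with limma 3.58.1 in R 4.3.3 for genotype, and arrays for single lines and for replicate 1 with the line as a term, all two-sided with Benjamini-Hochberg adjustment over 9686 genes. With 3 lines against 3, an exact permutation test cannot go below p = 0.1. Relative to neighbours means after subtracting the running median of 41 genes in chromosome order. The fits were tested on simulated data. Alternatives covered the filter, scaling, probe set choice, variance model, thresholds, replicate block, arrays and lines left out, the wild-type reference and neighbours. The members, the gene lists and the tests were chosen with earlier results of these data known. Genes named are MYC, CCND1, fixed partners, up to 4 genes of each list by smallest p between genotypes, up to 3 per list and direction in each line, the 5 most like and opposite, and 5 neighbours on each side. Genes named for replicate 1, and further genes marked in the text, were chosen after their values were seen. Several fixed partners without a symbol on these arrays were not analysed here. Figures were drawn with matplotlib 3.10.9, pandas 2.3.3 and numpy 2.4.6 in Python 3.11.15.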

Additional observations from a re-analysis of the deposited data

Results flagged for a closer look

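The difference between replicate 1 and the mean of replicates 2 and 3 did not run the same way in every line, and the difference between lines was not tested, since each rests on 3 arrays. For MYC it was 1.025 in A10 and 0.145 in B21, where replicate 1 was higher than both other arrays, and −0.12 in A30, −0.62 in N8, −0.45 in N4 and −0.17 in the parental cells, where it was lower than both. For CCND1 it was 0.11 in A30, and −0.145 in A10, −0.295 in B21, −0.28 in N8, −0.105 in N4 and −0.045 in the parental cells (log2).

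Genes of the listed pathways went opposite ways in 2 KO-labelled lines, each called against the wild-type lines. They were picked for these opposite calls, so the differences between the lines are given without a test. The share of all genes with such opposite calls was not counted. Between A30 and A10 (A30 minus A10), RB1 differed by −0.50, TFDP1 by −0.74, E2F2 by 0.56, MCM7 by 0.44 and FBXW8 by −0.41. Between B21 and A10, RB1 differed by −0.81 and TFDP1 by −0.65. Relative to neighbours RB1 in A30, MCM7 in A10 and TFDP1 in A10 and B21 were not called (limma adjusted p = 0.0517, 0.165, 0.705 and 0.371). E2F2 and FBXW8 were called relative to neighbours in both A10 and A30. E2F2 is an E2F factor, MCM7 a helicase subunit and FBXW8 a ubiquitin ligase component. For TFDP1 the rise in A10 came with neighbours at a median of 0.47, and its part in the difference was not tested.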

How the results depend on the processing

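The MYC and CCND1 differences in the KO-labelled lines and between genotypes kept their direction under each alternative run, except CCND1 in A30, which was −0.017 in replicates 2 and 3 alone and −0.0065 relative to neighbours. MYC differed between genotypes by −0.61 in replicate 1 alone and A10 by −1.43 in replicates 2 and 3 alone, and CCND1 in B21 by 0.33 relative to neighbours. Leaving out 1 array gave MYC −1.23 to −1.05 between genotypes, −1.29 to −0.76 in A10, −1.76 to −1.65 in A30, −0.77 to −0.65 in B21, −0.16 to 0.07 in N4, −0.86 to −0.51 in N8 and −0.24 to 0.09 in replicate 1. It gave CCND1 0.15 to 0.22, 0.01 to 0.09, 0.03 to 0.09, 0.38 to 0.55, −0.04 to 0.03, −0.06 to 0.10 and −0.17 to −0.09 in the same order.

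Counts of listed calls, 20 in A10, 60 in A30, 36 in B21, 2 in N4, 25 in N8, 58 in replicate 1 and 0 between genotypes, moved more. In A10 they were 12 with no filter, 8 at an adjusted p of 0.01, 4 at 1.5-fold, 48 in replicates 2 and 3 alone and 10 relative to neighbours. In A30 they were 35 at 0.01 and 10 at 1.5-fold, and in B21 9 at 1.5-fold. In N8 they were 10 at 0.01, 4 at 1.5-fold and 5 relative to neighbours. In N4 they were 1 with no filter, with arrays centred on their median, at 0.01, and without B21 or N8, and 0 at 1.5-fold and relative to neighbours. In replicate 1 they were 35 at 0.01, 2 at 1.5-fold and 38 without N8. Between genotypes they were 4 with the line as a random block, 4 without A10 and 1 without N8. Leaving out 1 array gave 7 to 28 in A10, 42 to 64 in A30, 22 to 39 in B21, 0 to 4 in N4, 15 to 29 in N8, 42 to 59 in replicate 1 and 0 to 1 between genotypes. Of the calls, 9 of 20 in A10, 34 of 60 in A30, 22 of 36 in B21, 0 of 2 in N4 and 4 of 25 in N8 were also called, in the same direction, relative to neighbours.

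Same-numbered arrays were not taken as pairs, since not every pair's deviations correlated over 0.1: 15 of 15 pairs of replicate 1, 14 of 15 of replicate 2 and 10 of 15 of replicate 3 did. As a hint from the data, 15 of 18 arrays correlated best, on average over other lines, with arrays of their own number. With the replicate block, listed calls in A10 were 34 with the number as a factor and 37 with replicate 1 as a term, and in N4 4 with replicate 1 as a term. Reversed among named genes were EGR1 between genotypes in replicate 1 alone (0.10), TFDP1 in A10 relative to neighbours (−0.059) and CCNA2 in A30 relative to neighbours (0.14). The causes were not tested. No detection flags were used, so dim signals are limited only by the filter.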
